A study of Mus musculus with 18 samples.

Results

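Transcripts of 10 genes of the extrinsic cell death pathway were followed in CD8+ T cells that had met their antigen once or repeatedly, with or without ibrutinib. They are the death ligands *Fasl* and *Tnfsf10*, the receptors *Fas*, *Tnfrsf10b*, *Tnfrsf1a* and *Tnfrsf1b*, the adaptor *Fadd*, the caspase *Casp8*, its inhibitor *Cflar* and the kinase *Ripk1*. The genes were chosen by name for their place in the pathway, and all 10 were among the 45706 genes listed for each library, the 27903 protein-coding and lncRNA genes and the 12255 genes that passed the filter on low counts. The cells were purified from spleens of wild type OT-I mice, which carry a transgenic receptor specific for an ovalbumin (OVA) peptide, and all were kept in IL-15 and IL-7. Repeat peptide stimulated cells received the peptide daily for 5 days, a culture used as a model of exhaustion, whereas single peptide stimulated cells were washed after the first stimulation and rested. From day 5 to day 8 each kind of cell was treated with 1 µM ibrutinib, a kinase inhibitor, or with its solvent DMSO. Per the study's methods, the peptide stayed in the medium of repeat peptide cells during this treatment. RNA-seq gave 18 libraries, namely 4 of repeat peptide cells with DMSO, 5 of repeat peptide cells with ibrutinib, 5 of single peptide cells with DMSO and 4 of single peptide cells with ibrutinib. Experiments A to D each gave a library of every group, experiment E only a repeat peptide library with ibrutinib and experiment F only a single peptide library with DMSO. The genotype entry of the labels names a *btk* knockout for experiments B to E, although the strain entry reads wild type for all libraries, and it was taken as the name of the experiment.

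Fas ligand (*Fasl*) and TRAIL (*Tnfsf10*) are membrane proteins by which cytotoxic T cells can kill, and by which activated T cells can also kill each other or themselves. Fas and TRAIL receptor 2 (*Tnfrsf10b*) carry death domains that recruit FADD and then caspase-8, while TNF receptor 1 (*Tnfrsf1a*) reaches the same caspase through RIPK1. TNF receptor 2 (*Tnfrsf1b*) has no death domain and is known in T cells as a costimulatory receptor. The protein of *Cflar*, c-FLIP, resembles caspase-8 and holds back its activation. In T cells stimulated through the antigen receptor these genes set how sensitive the cell is to activation-induced death.

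The total expected count of a library was between 23445922 and 51995372. The 5 CD8 T cell markers (*Cd8a*, *Cd8b1*, *Cd3d*, *Cd3e*, *Cd3g*) summed to 2258 to 3152 TPM, a level corrected for depth and gene length, and *Cd4* did not exceed 0.17 TPM, so the defining markers of the labelled cell type were present. Of the markers of other cells, *Klrb1c* and *Cd14* were higher and *Cd79b* lower with repeat stimulation and DMSO, without overlap. The sum of the NK cell markers *Ncr1* and *Klrb1c* was 2.64 to 11.4 TPM in repeat peptide cells and 0.59 to 2.63 TPM in single peptide cells with DMSO, and 2.69 to 25.6 TPM against 1.22 to 2.73 TPM with ibrutinib, but *Ncr1* was at 0 in 3 of the 4 repeat peptide libraries with DMSO and at most 0.03 TPM in the other. All 5 myeloid markers together summed to 1.28 to 3.08 TPM in repeat peptide cells and 0.19 to 6.23 TPM in single peptide cells with DMSO, of which *Cd14* was 1.1 to 2.92 TPM against at most 0.04 TPM. *Csf1r* and *Adgre1* were at 0 in all 9 libraries with DMSO, and so was *Cd79a* in the 4 of repeat peptide cells. The 4 B cell markers summed to 1.15 to 2.28 TPM in repeat peptide cells and 3.17 to 7.1 TPM in single peptide cells with DMSO, nearly all of it *Cd79b* (1.15 to 2.28 against 3.12 to 7.08 TPM), and the red cell markers *Hba-a1* and *Hbb-bs* summed to at most 1.84 TPM. The labels do not say that the libraries of a group came from separate animals, so the p-values measure the spread between these libraries. In bulk RNA, fewer cells with a transcript and less of it per cell cannot be told apart.

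On the TPM scale, *Casp8* had the highest mean of the 10 genes in every group, at 68 ± 6.13 TPM (mean ± SD, n = 4) in repeat peptide cells and 61.2 ± 6.88 TPM (n = 5) in single peptide cells with DMSO. In single peptide cells with ibrutinib its values (43 ± 8.5 TPM) overlapped those of *Cflar* (41.8 ± 9.44 TPM, n = 4). *Tnfrsf10b* had the lowest mean in every group, at 4.24 ± 0.724 TPM in repeat and 1.67 ± 0.883 TPM in single peptide cells with DMSO. The order between *Casp8* and *Tnfrsf10b* differed with the stimulation. In repeat peptide cells with DMSO the means ran downwards from *Casp8* through *Tnfrsf1b*, *Cflar*, *Ripk1*, *Fasl*, *Tnfsf10*, *Tnfrsf1a*, *Fas* and *Fadd* to *Tnfrsf10b*. The ranges of the 4 libraries overlapped for *Tnfrsf1b* and *Cflar*, for *Ripk1*, *Fasl* and *Tnfsf10*, for *Tnfrsf1a* and *Fas*, and for *Fadd* and *Tnfrsf10b*. *Fasl* (up to 36.16 TPM) and *Tnfsf10* (up to 41.29 TPM) also overlapped *Tnfrsf1b* (from 36.06 TPM) and *Cflar* (from 33.5 TPM). In single peptide cells with DMSO both ligands stood below both death domain receptors *Tnfrsf1a* and *Fas*, with *Fasl* at 7.69 ± 3.08 TPM and *Tnfsf10* at 8.73 ± 2.27 TPM. *Tnfsf10* ranged up to 11.6 TPM there and *Fas* down to 9.44 TPM, so these neighbours overlapped as well. The neighbours in this group that did not overlap were *Cflar* and *Ripk1*, and *Fadd* and *Tnfrsf10b*.

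**Figure D1:**
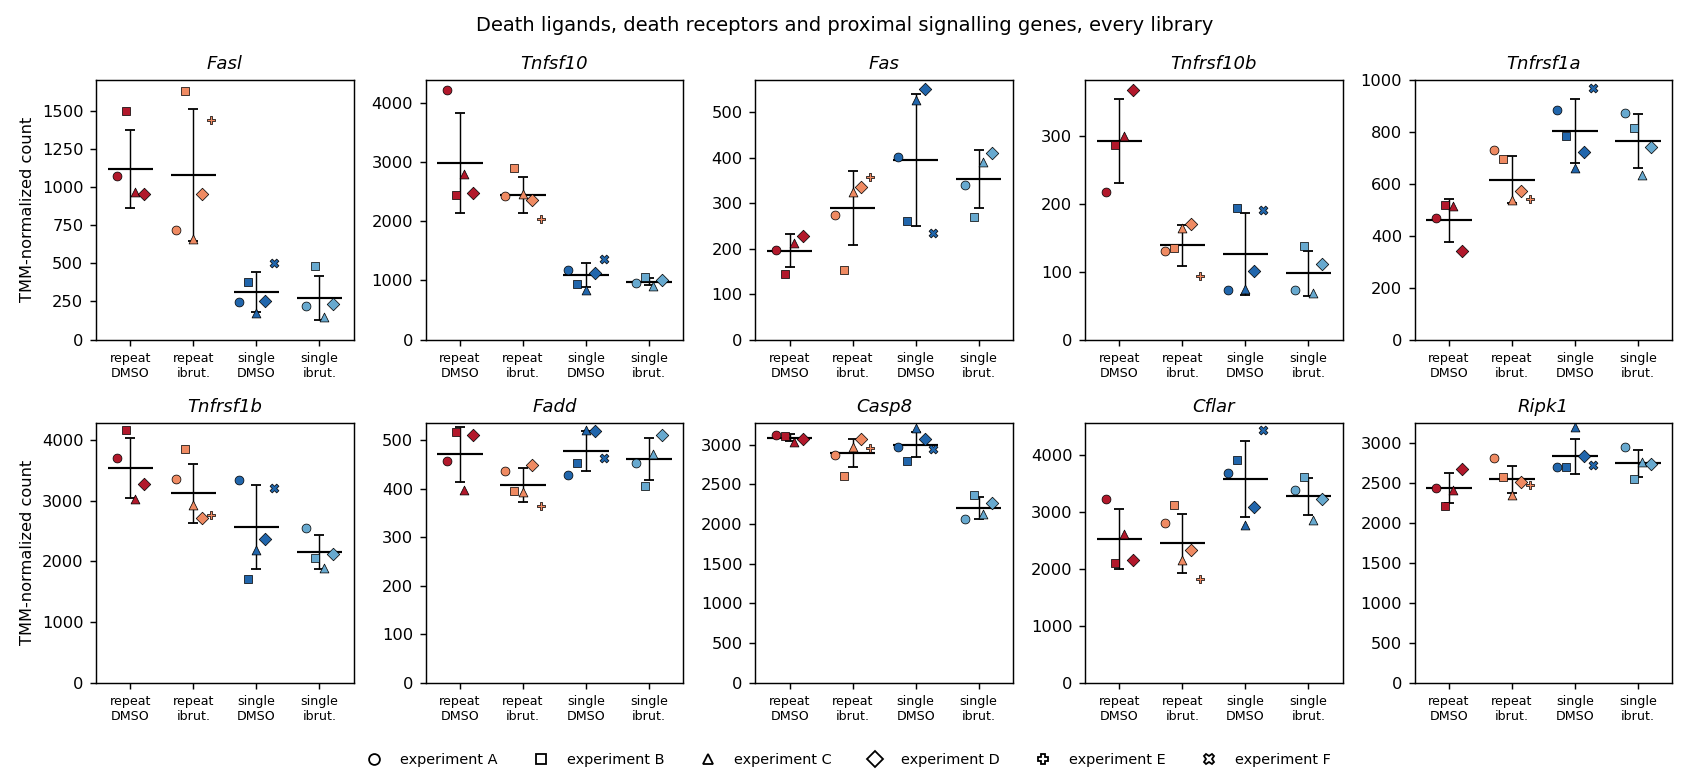
TMM-normalized counts (y axis, linear from 0) of the 10 genes in the 18 libraries. Points are libraries, marker shapes are experiments, and bars are the mean ± SD of a group. Both ligands stand higher in all repeat peptide libraries than in any single peptide library, *Tnfrsf10b* is highest in repeat peptide cells with DMSO, and *Casp8* is lowest in single peptide cells with ibrutinib.

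Repeat against single peptide stimulation without drug moved both ligands up and divided the receptors. *Fasl* rose 3.61-fold, *Tnfsf10* 2.74-fold and *Tnfrsf10b* 2.32-fold, while *Fas* was 2.02-fold and *Tnfrsf1a* 1.75-fold lower. *Tnfrsf1b* rose, *Cflar* and *Ripk1* fell by less, and *Fadd* and *Casp8* were not called. A gene was called when its adjusted p was under 0.05, its mean normalized count at least 50 and its absolute log2 fold change above 0.2. By this rule 4 of the 10 genes were higher and 4 lower, while of all genes tested 47% were called, 22.8% higher and 24.2% lower. The median log2 fold change was 0.01 over the 10 genes and -0.00216 over all genes tested.

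*Fasl* (chromosome 1, 161780689 to 161788495, minus strand, GRCm38) had normalized counts of 1071, 1499.6, 966 and 954 in repeat peptide cells of experiments A to D and of 247, 378, 175, 254 and 502 in single peptide cells of experiments A to D and F, both with DMSO. The lowest repeat peptide library lay well above the highest single peptide library, and the gene was higher in 4 of 4 experiments (log2 fold change 1.85, SE 0.34, adjusted p = 0.000189). *Tnfsf10* (chromosome 3, 27317028 to 27342427, plus strand) had normalized counts of 4227, 2451, 2793 and 2484 against 1173, 944, 845, 1127 and 1369 in the same libraries. Its groups did not overlap either, with the library of experiment A the highest of the repeat peptide group (log2 fold change 1.45, SE 0.16, adjusted p = 6.79e-07). NK cells also carry both ligands, and the part of the *Klrb1c* difference given above in these results was not tested.

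*Fas* (chromosome 19, 34290666 to 34327772, plus strand) moved the other way, with normalized counts of 198, 144, 212 and 228 in repeat peptide and 402, 261, 526, 552 and 235 in single peptide cells with DMSO. All 4 repeat peptide libraries were below all 5 single peptide libraries, of which experiments B and F were the lowest (log2 fold change -1.02, SE 0.27, adjusted p = 0.00412). *Tnfrsf1a* (chromosome 6, 125349362 to 125362484, plus strand) had normalized counts of 469, 517, 514 and 340.5 against 886, 783, 663, 721 and 970.0. It was also lower without overlap and in 4 of 4 experiments (log2 fold change -0.81, SE 0.15, adjusted p = 0.000241). *Tnfrsf10b* (chromosome 14, 69767472 to 69784411, plus strand) had normalized counts of 218, 287, 301 and 368 against 73, 194, 75.2, 101 and 190.4. The groups were separate, although the single peptide libraries of experiments B and F came close to the repeat peptide library of experiment A (log2 fold change 1.21, SE 0.30, adjusted p = 0.0026). *Tnfrsf1b* (chromosome 4, 145213463 to 145246870, minus strand) had normalized counts of 3708, 4162, 3023 and 3270.2 against 3348, 1706, 2196, 2364 and 3207, which overlapped (log2 fold change 0.47, SE 0.17, adjusted p = 0.0264). Its call was lost on leaving out the repeat peptide library of experiment A or B or the single peptide library of experiment B, C or D, with an adjusted p of up to 0.0889.

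Because the ligands and *Fas* moved in opposite directions, the sequence before their start sites is shown, from RefSeq on GRCm38.p6. It was searched on both strands for AP-1 (TGANTCA), NFAT core (GGAAA), STAT (TTCNNNGAA) and GC box (GGGCGG) motifs, which are set in capitals. Of the 10 genes 9 had an entry. The window ends where the first annotated transcript begins and is 250 bases long for *Fasl* (chr1:161788496-161788745, minus strand) and *Fas* (chr19:34290409-34290658, plus strand) and 201 bases for *Tnfsf10* (chr3:27316827-27317027, plus strand).
Fasl: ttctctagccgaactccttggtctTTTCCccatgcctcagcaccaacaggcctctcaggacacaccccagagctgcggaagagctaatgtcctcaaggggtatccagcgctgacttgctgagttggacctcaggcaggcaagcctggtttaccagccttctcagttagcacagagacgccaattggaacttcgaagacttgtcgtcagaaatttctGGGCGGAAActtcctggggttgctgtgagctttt
Tnfsf10: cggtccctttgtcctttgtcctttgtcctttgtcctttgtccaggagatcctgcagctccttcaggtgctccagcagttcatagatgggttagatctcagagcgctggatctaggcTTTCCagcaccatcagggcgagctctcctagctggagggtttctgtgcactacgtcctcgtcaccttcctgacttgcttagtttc
Fas: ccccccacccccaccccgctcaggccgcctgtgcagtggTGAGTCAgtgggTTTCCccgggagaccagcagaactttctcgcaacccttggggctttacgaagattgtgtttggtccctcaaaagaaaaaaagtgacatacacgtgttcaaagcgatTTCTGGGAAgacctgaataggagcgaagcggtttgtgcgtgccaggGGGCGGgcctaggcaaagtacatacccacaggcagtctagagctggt

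The *Fasl* window held 2 NFAT core matches, beginning 226 and 30 bases before the RefSeq start, of which the nearer overlaps the single GC box match. Neither AP-1 nor STAT motif was found in it. The *Tnfsf10* window held only 1 NFAT core match. The *Fas* window held 1 match to each motif, with AP-1 at 211, NFAT core at 199, STAT at 93 and the GC box at 47 bases before the start. Among 32851 RefSeq promoters, windows of 250 bases held the AP-1 motif in 6.75%, the NFAT core in 55.6%, the STAT motif in 7.02% and the GC box in 32.7% of cases. For windows of 201 bases the shares were 5.59%, 48.7%, 5.8% and 24.8%. The short NFAT core is therefore in about as many promoters as not. The matches are letters in these windows and no measurement of binding.

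Downstream of the receptors the differences were smaller. *Cflar* (chromosome 1, 58711508 to 58758884, plus strand) had normalized counts of 3224, 2092, 2603 and 2158 in repeat peptide and 3673, 3908, 2766, 3073 and 4425 in single peptide cells with DMSO. Its estimated counts were not whole in 13 of the 18 libraries, so some reads may be split with other genes, which also touches its ratio to *Casp8*. The groups overlapped in the library of experiment A, yet the gene was lower in 4 of 4 experiments (log2 fold change -0.50, SE 0.17, adjusted p = 0.0159). Its call was lost without the repeat peptide library of experiment B or of experiment D (adjusted p up to 0.0595). *Ripk1* (chromosome 13, 34002363 to 34037147, plus strand) was lower by 1.16-fold without overlap, from 2832 ± 215 to 2436 ± 189 normalized counts (mean ± SD, log2 fold change -0.22, SE 0.0827, adjusted p = 0.0332). That call was lost without repeat peptide library A, B or C or single peptide library C, with no filter on low counts and in a fit of only these groups (adjusted p up to 0.108). *Ripk1* overlaps *Serpinb6a* on the opposite strand and 2 processed pseudogenes, and its estimated counts were not whole in all 18 libraries, so reads may be split between them. The adaptor *Fadd* (chromosome 7, 144577318 to 144582463, minus strand, overlapping the antisense gene *Faddos*) and *Casp8* (chromosome 1, 58795374 to 58847503, plus strand) had log2 fold changes of -0.02 (SE 0.11) and 0.04 (SE 0.072). *Casp8* had normalized counts of 3123, 3115, 3031 and 3076 in repeat peptide and 2974, 2799.5, 3216, 3067 and 2943 in single peptide cells.

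**Figure D2:**
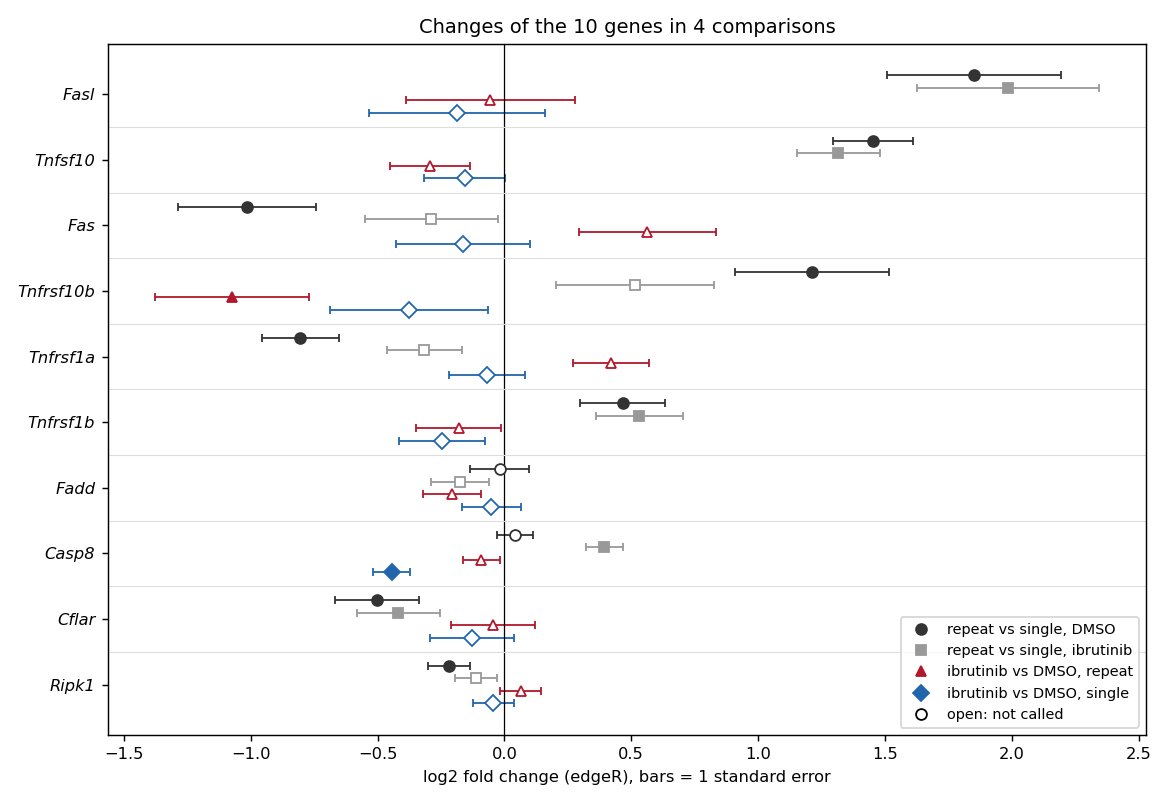
Log2 fold changes (x axis) of the 10 genes (y axis) in 4 comparisons from a single edgeR fit, with bars of 1 standard error; filled symbols were called and open ones were not. The ligands lie far to the right in both comparisons of repeat with single peptide, and *Tnfrsf10b* in repeat peptide cells and *Casp8* in single peptide cells are the filled points of the ibrutinib comparisons.

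In repeat peptide cells ibrutinib lowered the TRAIL receptor and left the ligand transcripts without a call. *Tnfrsf10b* was 2.11-fold lower with ibrutinib than with DMSO. This was the only one of the 10 genes called, so 1 was lower and 0 higher, against 5.92% of all genes called, 1.92% lower and 4.01% higher. The median log2 fold change was -0.073 over the 10 genes and 0.0045 over all genes. At an unadjusted p under 0.05, 2 of the 10 passed.

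*Tnfrsf10b* had normalized counts of 131, 135, 164, 170.0 and 94 in repeat peptide cells with ibrutinib of experiments A to E. All 5 lay below the 4 libraries with DMSO given above (log2 fold change -1.07, SE 0.30, adjusted p = 0.04). Within experiments A to D its log2 differences were -0.73, -1.09, -0.87 and -1.11, so it was lower in 4 of 4. The adjusted p was close to the threshold, and the call was lost on leaving out the DMSO library of experiment B, C or D or the ibrutinib library of experiment A, B or E (adjusted p up to 0.149, log2 fold change -1.19 to -0.94). With the experiment as a block it was called at a log2 fold change of -0.94 (adjusted p = 0.0124).

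Of the other death domain receptors, *Tnfrsf1a* had normalized counts of 729, 696, 538, 574 and 543 with ibrutinib. All 5 values lay above the 4 values with DMSO, but the gene was not called (log2 fold change 0.42, SE 0.15, adjusted p = 0.107). *Fas* had normalized counts of 274, 154, 324, 335 and 357 with ibrutinib, where experiment B was the lowest, as it was with DMSO. These values overlapped those with DMSO and *Fas* was not called either (log2 fold change 0.56, SE 0.27, adjusted p = 0.232). Both genes were higher in 4 of 4 experiments, by 0.47, 0.09, 0.61 and 0.55 on the log2 scale for *Fas* and by 0.64, 0.43, 0.07 and 0.75 for *Tnfrsf1a* in experiments A to D. With the experiment as a block both were called, *Fas* at 0.44 (adjusted p = 0.0285) and *Tnfrsf1a* at 0.45 (adjusted p = 0.0166), which makes 3 of the 10 genes where that fit calls 13.8% of all genes.

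*Fasl* had normalized counts of 717, 1631, 658, 958 and 1440.1 in repeat peptide cells with ibrutinib, spread more widely than with DMSO and not called (log2 fold change -0.06, SE 0.33, adjusted p = 0.944). Experiments A and C were lower with the drug, with log2 differences of -0.58 and -0.55, while B and D differed by 0.12 and 0.0062. *Tnfsf10* had normalized counts of 2421, 2901, 2455, 2369 and 2047 (log2 fold change -0.29, SE 0.16, adjusted p = 0.288), and the DMSO library of experiment A stood above all of them. *Tnfrsf1b* and *Fadd* were each lower in 4 of 4 experiments but with log2 fold changes of only -0.18 and -0.21 (adjusted p = 0.572 and 0.304). *Casp8*, *Cflar* and *Ripk1* had log2 fold changes of -0.09, -0.04 and 0.06 with SEs of 0.0719, 0.16 and 0.0825. The sign for *Cflar* was not stable, at 0.035 with the block and 0.13 with an offset for the effective length of the gene.

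**Figure D3:**
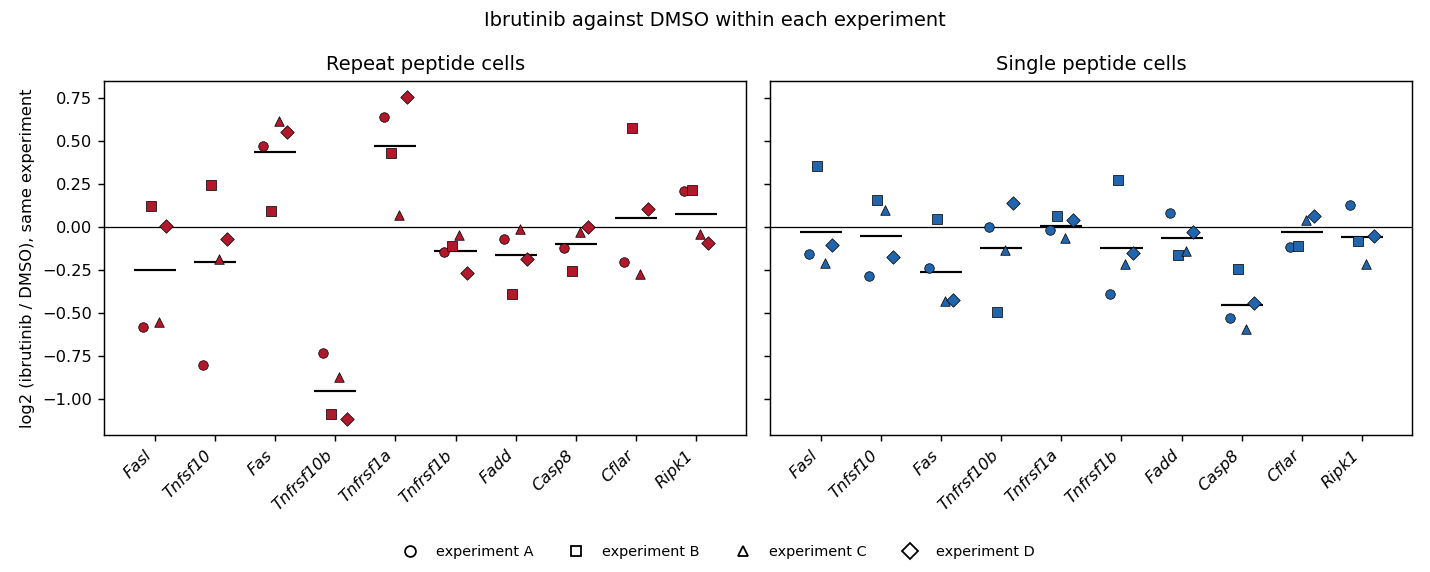
Log2 ratio of normalized counts, ibrutinib over DMSO, within experiments A to D (y axis) for the 10 genes (x axis), in repeat peptide cells (left) and single peptide cells (right); horizontal bars are means over the 4 experiments. On the left all 4 points of *Tnfrsf10b* lie below 0 and all 4 of *Fas* and *Tnfrsf1a* above it, and on the right all 4 of *Casp8* lie below 0.

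In single peptide cells the caspase gene was the one called. *Casp8* was 1.36-fold lower with ibrutinib, and was the only one of the 10 genes called, 1 lower and 0 higher, against 3.04% of all genes, 2.69% lower and 0.351% higher. It also was the only one of the 10 with an unadjusted p under 0.05. The median log2 fold change was -0.16 over the 10 genes and 0.00995 over all genes. *Casp8* had normalized counts of 2059, 2365, 2132 and 2259.5 in experiments A to D, all below the 5 single peptide libraries with DMSO (log2 fold change -0.44, SE 0.0726, adjusted p = 0.00355). The log2 differences within experiments A to D were -0.53, -0.24, -0.59 and -0.44. It was called under every alternative with the same thresholds, with log2 fold changes from -0.48 to -0.42.

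The other 9 genes had log2 fold changes from -0.38 for *Tnfrsf10b* to -0.04 for *Ripk1* in single peptide cells. *Tnfrsf10b* had normalized counts of 73, 138, 68.6 and 111 with ibrutinib, within the range with DMSO apart from the library of experiment C. *Fasl* had normalized counts of 222, 482, 151 and 236, with experiment B the highest of the group, as in both repeat peptide groups. *Tnfsf10* had normalized counts of 962, 1051, 905 and 999, the narrowest of its 4 groups. *Fas* had 341, 269, 391 and 411 and *Tnfrsf1a* 875, 817, 633 and 740.5, overlapping the DMSO values in both cases.

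Whether ibrutinib acted differently in the 2 kinds of cell was tested by the interaction, the ibrutinib effect in repeat peptide cells minus that in single peptide cells. None of the 10 genes was called, where 1.26% of all genes were, although 2 of the 10 had an unadjusted p under 0.05. They were *Tnfrsf1a* (difference 0.49, SE 0.21, adjusted p = 0.372) and *Casp8* (difference 0.35, SE 0.10, adjusted p = 0.109). For *Tnfrsf10b* the difference was -0.70 (SE 0.43, adjusted p = 0.605) and for *Fas* 0.73 (SE 0.38, adjusted p = 0.492). With the experiment as a block *Fas* was called, at 0.71 (adjusted p = 0.0269), among 5.54% of all genes. With DESeq2's Wald test *Casp8* was called, at 0.37 (adjusted p = 0.0172), among 2.7% of all genes. For *Tnfrsf10b* and *Casp8* the effect of ibrutinib was thus not shown by edgeR to differ between the kinds of cell.

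With ibrutinib in both arms, repeat peptide cells still had more of both ligand transcripts. *Fasl* was 3.96-fold (log2 fold change 1.98, SE 0.36, adjusted p = 0.000238) and *Tnfsf10* 2.49-fold higher (log2 fold change 1.32, SE 0.16, adjusted p = 4.46e-06), both without overlap and in 4 of 4 experiments. *Tnfrsf1b* (0.53, adjusted p = 0.0177) and *Casp8* (0.39, adjusted p = 0.000281) were higher and *Cflar* (-0.42, adjusted p = 0.0456) lower on the log2 scale. That is 4 genes higher and 1 lower of 10, while 38.4% of all genes were called, 18.7% higher and 19.6% lower. The call of *Cflar* was lost in 13 of 16 alternatives, among them 8 of the 9 that leave out a library (all but repeat peptide library B), with an adjusted p of up to 0.124. *Fas*, *Tnfrsf10b* and *Tnfrsf1a* were not called, with log2 fold changes of -0.29, 0.51 and -0.32. The block called *Fas* (-0.41, adjusted p = 0.0102) and *Tnfrsf10b* (0.68, adjusted p = 0.0239) as well, where it called 48.6% of all genes.

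Ibrutinib-treated repeat peptide cells were also set against single peptide cells that had only DMSO. *Fasl* (log2 fold change 1.80, SE 0.33, adjusted p = 0.000401) and *Tnfsf10* (log2 fold change 1.16, SE 0.15, adjusted p = 1.47e-05) were higher, and *Tnfrsf1a* (-0.39, adjusted p = 0.0389) and *Cflar* (-0.55, adjusted p = 0.01) lower. These 2 higher and 2 lower genes stand beside 32.9% of all genes called, 16.7% higher and 16.2% lower. *Tnfrsf10b* differed by 0.14 (SE 0.29, adjusted p = 0.735), with means of 139 ± 30.5 and 127 ± 60.7 normalized counts (± SD, n = 5 each). *Fas* differed by -0.45 and was not called (adjusted p = 0.164). The block called *Fas* (-0.68, adjusted p = 0.000369) and *Tnfrsf1b* (0.43, adjusted p = 0.0205) but not *Tnfrsf1a* (-0.27, adjusted p = 0.0684), with 40.7% of all genes called. The call of *Tnfrsf1a* was also lost on leaving out repeat peptide library C, D or E or single peptide library A, B or F, with an adjusted p of up to 0.112. These comparisons share libraries with each other and are not independent.

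The balance between a ligand and its receptor, and between the inhibitor and its caspase, was described by the ratio of their TPM in each library. With DMSO the *Fasl* to *Fas* ratio was 3.6, 5.9, 2.82 and 2.71 in repeat peptide cells of experiments A to D and 0.417, 0.92, 0.312, 0.305 and 1.31 in single peptide cells of experiments A to D and F. Every repeat peptide library had more *Fasl* than *Fas* transcripts per length, and 4 of the 5 single peptide libraries had fewer. The log2 ratios differed by 2.71 (two-sided exact permutation p = 0.0159, adjusted p = 0.0476), the smallest p these group sizes can give. The TPM of *Fasl* and of *Fas* were each already without overlap between these groups, in opposite directions. The ratio therefore had to reach this p, and it is no further test beyond those of the single genes. The *Cflar* to *Casp8* ratio was 0.552, 0.538, 0.549 and 0.539 in repeat peptide and 0.64, 1.1, 0.679, 0.714 and 0.94 in single peptide cells with DMSO. The repeat peptide libraries lay close together and below all single peptide libraries, and the log2 ratios differed by -0.55 (two-sided exact permutation p = 0.0159, adjusted p = 0.0476). When estimated counts took the place of TPM the *Fasl* to *Fas* difference was 2.87 with the same exact permutation p of 0.0159, and its adjusted p rose to 0.0952 only because the p of the other ratio rose. That of *Cflar* to *Casp8* no longer passed (log2 difference -0.55, exact permutation p = 0.0635, adjusted p = 0.19). On leaving out any 1 of the 9 libraries the differences were 2.47 to 3.03 and -0.63 to -0.43, and the smaller groups could not pass after adjustment (adjusted p 0.0857 to 0.107), so the test says nothing there.

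With ibrutinib the *Fasl* to *Fas* ratio was 1.68, 6.85, 1.3, 1.97 and 2.46 in repeat peptide cells of experiments A to E, and its log2 difference from DMSO was -0.60, two-sided exact permutation p = 0.302, adjusted p = 0.362. Experiment B had the highest ratio in both repeat peptide groups. In single peptide cells with ibrutinib it was 0.429, 1.2, 0.268 and 0.394 (log2 difference -0.17, two-sided exact permutation p = 0.889, adjusted p = 0.889). The *Cflar* to *Casp8* ratio was 0.611, 0.757, 0.612, 0.538 and 0.618 in repeat peptide cells with ibrutinib (log2 difference 0.20, two-sided exact permutation p = 0.0635, adjusted p = 0.127). It was 0.991, 1.00, 1.01 and 0.877 in single peptide cells with ibrutinib, where the 4 values lay inside the range of the 5 with DMSO (log2 difference 0.28, two-sided exact permutation p = 0.19, adjusted p = 0.286). Neither ratio was shown to differ between ibrutinib and DMSO.

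**Figure D4:**
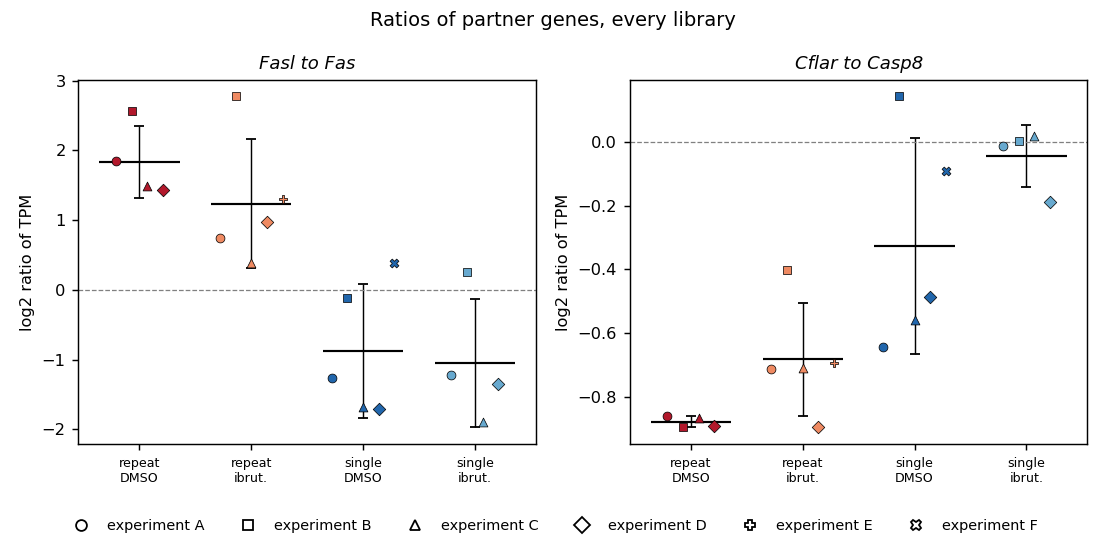
Log2 ratio of TPM (y axis) of *Fasl* to *Fas* (left) and *Cflar* to *Casp8* (right) in the 18 libraries; points are libraries, marker shapes are experiments, bars are the mean ± SD and the dashed line marks equal TPM. All repeat peptide libraries lie above the line on the left, and the 4 repeat peptide libraries with DMSO lie close together near the bottom on the right.

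Around the 10 genes, 64 further genes of the pathway were listed in 5 groups, of which 61 were tested. Repeat against single peptide with DMSO called 10 of the 61 higher and 22 lower, and 27 of these 32 were called in all 15 alternatives tried for them. Those did not include the stricter fold threshold or the fit of only the groups compared. Of all genes 47% were called there, 22.8% higher and 24.2% lower. Only the total share was near that of the pathway genes, whose calls leaned to lower. In repeat peptide cells ibrutinib called 6 higher and none lower, where 5.92% of all genes were called, and with the experiment as a block 11 higher and 4 lower, where 13.8% were. In single peptide cells it called none higher and 4 lower, where 3.04% of all genes were called. The interaction called 2, both with a larger change in repeat peptide cells, where 1.26% of all genes were called, and 7 with the block, where 5.54% were.

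With ibrutinib 4 of 8 receptors tested were called in repeat peptide cells, all higher, beside 5.92% of all genes called and 4.01% higher, and 0 of 8 in single peptide cells. *Tnfrsf22* and *Tnfrsf23*, known in the mouse as decoy receptors for TRAIL, and their relative *Tnfrsf26* lie beside each other on chromosome 7, between 143607659 and 143685872. *Tnfrsf23* had normalized counts of 41.9, 31.6, 29.9 and 36.3 with DMSO and 136, 189, 48.1, 92 and 161 with ibrutinib in repeat peptide cells, without overlap (log2 fold change 1.84, SE 0.32, adjusted p = 0.0019). *Tnfrsf26* had normalized counts of 557, 518, 354 and 315 against 1282, 1486, 914, 824 and 1278 (log2 fold change 1.41, SE 0.20, adjusted p = 0.000317). *Tnfrsf22* had normalized counts of 362, 342, 377 and 328 against 709.5, 699.6, 457, 570.3 and 552 (log2 fold change 0.76, SE 0.14, adjusted p = 0.00311). All 3 were thus higher with ibrutinib in the cells in which *Tnfrsf10b*, the receptor that signals death, was lower. In single peptide cells *Tnfrsf26* was not called but also higher without overlap (2370 to 2725 normalized counts with ibrutinib, 1422 to 2336 with DMSO). *Tnfrsf22* (766 to 994 against 563 to 774) and *Tnfrsf23* (135 to 187 against 128 to 249) overlapped there and were not called. With repeat stimulation and DMSO 1 receptor was called higher and 5 lower, beside 22.8% and 24.2% of all genes. The same 3 were lower, at log2 fold changes of -2.26, -2.15 and -0.96. The estimated counts of *Tnfrsf22* and *Tnfrsf23* were not whole in 17 of the 18 libraries, so reads may be split between these similar genes, while those of *Tnfrsf26* were whole in all. *Tnfrsf14*, the receptor of LIGHT, was also higher with ibrutinib (log2 fold change 0.70, SE 0.14, adjusted p = 0.00439). *Tnfrsf25*, the death domain receptor DR3, was lower with repeat stimulation and DMSO (log2 fold change -3.05, SE 0.55, adjusted p = 0.000161), and its call was lost without the single peptide library of experiment A. The highest adjusted p over the alternatives was 0.00111, so that loss came from the minimum of the mean count.

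*Tnfrsf23* and *Tnfrsf14* were the 2 pathway genes called in the interaction, at 1.96 (adjusted p = 0.0311) and 0.79 (adjusted p = 0.0458). Their log2 fold changes with ibrutinib in single peptide cells were -0.12 and -0.09 and were not called. On leaving out 1 library the call of *Tnfrsf23* was lost in 9 and that of *Tnfrsf14* in 12 of 18 cases. *Tnfrsf11b*, whose product osteoprotegerin binds TRAIL and RANKL, was at 0 counts in all 5 single peptide libraries with DMSO. In repeat peptide cells it had normalized counts of 242, 125, 247 and 350.1 with DMSO, at least 70.5-fold higher than a floor of 3 counts per library, and of 103, 38.7, 164, 143 and 65.5 with ibrutinib. The difference between the last 2 groups was not called (log2 fold change -1.22, SE 0.44, adjusted p = 0.119), but it was with the block (-1.18, adjusted p = 0.0163).

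**Figure D5:**
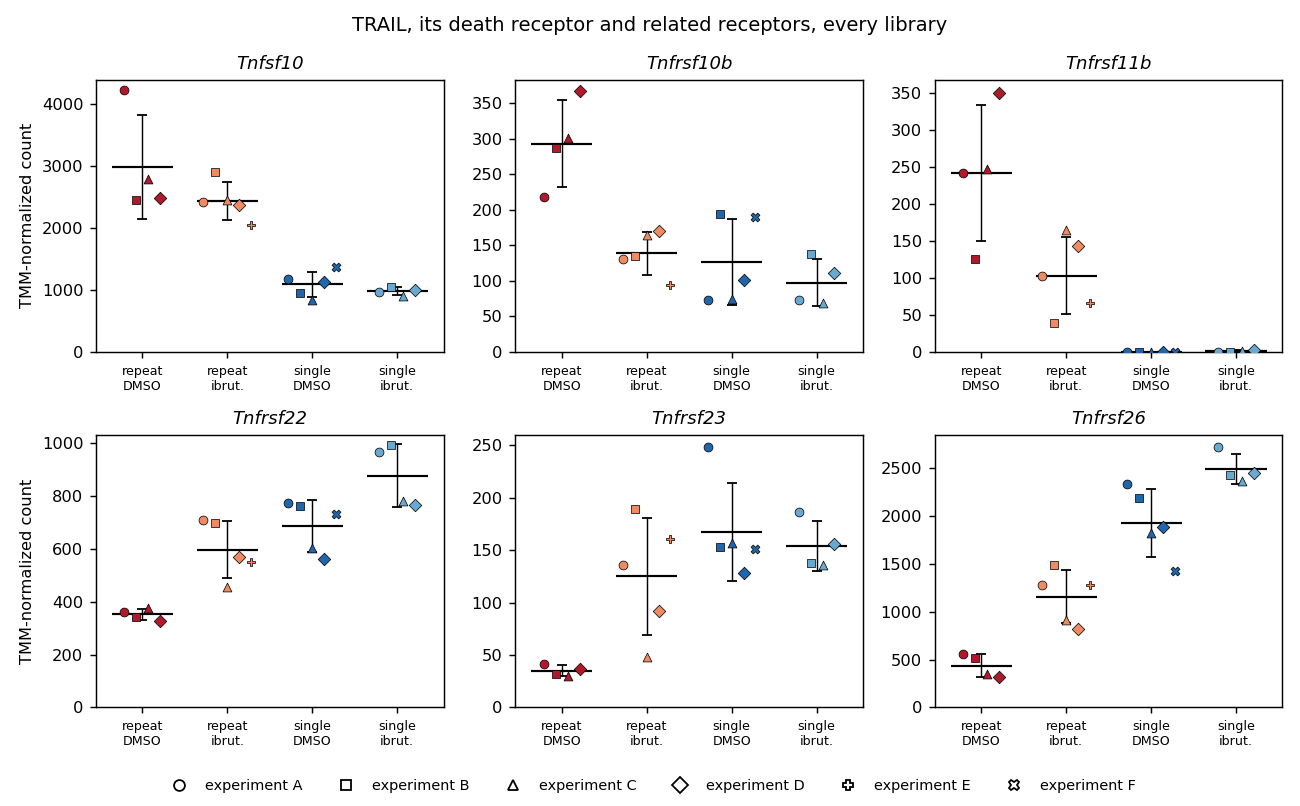
TMM-normalized counts (y axis, linear from 0) of TRAIL (*Tnfsf10*), its death receptor *Tnfrsf10b*, and *Tnfrsf11b*, *Tnfrsf22*, *Tnfrsf23* and *Tnfrsf26* in the 18 libraries; points are libraries, marker shapes are experiments and bars are the mean ± SD. In repeat peptide cells *Tnfrsf10b* is lower with ibrutinib than with DMSO and *Tnfrsf22*, *Tnfrsf23* and *Tnfrsf26* are higher, in every library.

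Among the other ligands 11 of 13 listed genes were tested. With repeat stimulation and DMSO 4 were higher and 2 lower, beside 22.8% and 24.2% of all genes, of which the leading ones were *Tnfsf4* (OX40 ligand, log2 fold change 4.44, SE 0.61, adjusted p = 9.7e-06), *Tnfsf11* (RANKL, log2 fold change 4.25, SE 0.22, adjusted p = 8.82e-11), *Tnfsf9* (4-1BB ligand, log2 fold change 1.56, SE 0.31, adjusted p = 0.000383) and *Ltb* (lymphotoxin beta, log2 fold change -1.33, SE 0.22, adjusted p = 5.66e-05). The median log2 fold change of the 11 was 1.44. *Ltb* was the only one called with ibrutinib in repeat peptide cells, and it was higher there (log2 fold change 1.24, SE 0.22, adjusted p = 0.00188). The median of the 11 was -0.37 in that comparison, and 7 had an unadjusted edgeR p under 0.05. Of the other leading ligands, *Tnfsf4* (69 to 235 normalized counts with ibrutinib, 295 to 608 with DMSO) and *Tnfsf11* (547 to 940 against 1014 to 1146) were lower without overlap. *Tnfsf9* overlapped (88.1 to 168 against 147 to 291). *Tnf* itself, the ligand of both TNF receptors, was not called between repeat and single peptide cells with DMSO (log2 fold change 0.30, SE 0.20, adjusted p = 0.217) or with ibrutinib in repeat peptide cells (log2 fold change -0.08, SE 0.20, adjusted p = 0.867). In single peptide cells ibrutinib lowered it, from 364, 294, 495, 457 and 309 to 179, 208, 174 and 128 normalized counts (log2 fold change -1.15, SE 0.21, adjusted p = 0.00655). *Tnfsf14* (LIGHT) was lower there as well (log2 fold change -0.97, SE 0.18, adjusted p = 0.00614). For *Tnf* the interaction was 1.08 (adjusted p = 0.0829), and with the block it was called (1.15, adjusted p = 0.0279).

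Of 14 downstream caspases and necroptosis genes, 4 were higher and 5 lower with repeat stimulation and DMSO, beside 22.8% higher and 24.2% lower of all genes. *Mlkl*, the effector of necroptosis, was higher (log2 fold change 1.73, SE 0.17, adjusted p = 2.34e-07), as was *Apaf1*, the scaffold of the apoptosome (0.75, adjusted p = 3.53e-05). *Dffb*, the nuclease that cuts DNA in apoptosis, led the lower ones (-0.73, adjusted p = 1.4e-06), and *Bid*, which carries the caspase-8 signal to mitochondria, was among them (-0.46, adjusted p = 0.00792). With ibrutinib in repeat peptide cells *Dffb* was called higher (0.34, adjusted p = 0.0204). *Bid* was 0.29 (adjusted p = 0.219). With ibrutinib in single peptide cells *Mlkl* (log2 fold change -1.02, SE 0.18, adjusted p = 0.00592) was lower, along with *Casp8*. In repeat peptide cells *Mlkl* was not called but also lower without overlap (477 to 787 normalized counts with ibrutinib, 826 to 950 with DMSO). It was not called in the interaction.

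Of 22 adaptors and ubiquitin machinery genes of the receptor complexes, 1 was higher and 9 lower with repeat stimulation and DMSO. Only their total share was near the 47% of all genes (22.8% higher and 24.2% lower), as the calls in the list leaned to lower. Those leading were *Rbck1* (-0.63, adjusted p = 8.77e-06) and *Sharpin* (-0.59, adjusted p = 0.00252), 2 subunits of the linear ubiquitin ligase, *Traf5* (-0.62, adjusted p = 0.00134) and *Ikbkg* (-0.59, adjusted p = 0.000123), the regulatory subunit of the IKK complex. *Map3k7*, the kinase TAK1, was the only one higher and is named for that reason, after its value was seen (0.41, adjusted p = 0.000482). The median of the 22 was -0.099. Neither ibrutinib comparison called any of the 22. The deubiquitinase gene *Tnfaip3* (A20) had a log2 fold change of 0.62 (adjusted p = 0.27) with repeat stimulation and was called only with the block (0.57, adjusted p = 0.0238). *Birc3*, coding for cIAP2, was at -0.07 (adjusted p = 0.632). Of 6 sheddases and membrane proteases, which release such ligands and receptors from the surface, *Sppl2b* alone was called, lower with repeat stimulation and DMSO (-0.43, adjusted p = 0.0239), and the call was lost in 3 of 9 cases when a library was left out.

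With ibrutinib in both arms repeat against single peptide called 14 of the 61 higher and 16 lower, where 38.4% of all genes were called. Repeat peptide cells with ibrutinib against single peptide cells with DMSO gave 10 higher and 12 lower, where 32.9% of all genes were called. The leading ligands were the same genes in both, *Tnfsf11* (4.50 and 3.76 on the log2 scale), *Tnfsf4* (2.7 and 2.87), *Tnfsf14* (1.79 and 0.82) and *Tnfsf9* (1.41 and 0.91), all higher. *Mlkl* (2.21 and 1.19) and *Apaf1* (0.76 and 0.59) were called higher in both as well. *Tnfrsf26* (-1.11 and -0.74) and *Tnfrsf14* (-0.78 and -0.87) were called lower in both, and so were *Traf5* (-0.67 and -0.54) and *Sharpin* (-0.62 and -0.45). *Tnf* was called higher in repeat peptide cells when both arms had ibrutinib (log2 fold change 1.38, SE 0.21, adjusted p = 4.57e-05).

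The 3 genes of the 10 that varied most over the 18 libraries were *Fasl*, *Tnfsf10* and *Tnfrsf10b*, with SDs of log2 CPM (counts scaled for depth) of 1.13, 0.737 and 0.737. For each, the tested genes with the smallest root mean square difference of centred log2 CPM over the 18 libraries were sought. For *Fasl* these were *Cers6* (0.365), *Gpr183* (0.403) and *Slco4a1* (0.404). For *Tnfsf10* they were *Arl14ep* (0.184), *Anxa4* (0.225) and *Hspa4l* (0.231), which followed it more closely. For *Tnfrsf10b* they were *Il2ra* (0.312), the alpha chain of the IL-2 receptor, and *Msmo1* (0.353) and *Lss* (0.364), a pair of sterol synthesis genes. The libraries share 4 groups and 6 experiments, so the points behind these values are not independent.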

How the data were processed

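RNA-seq was done on 18 libraries of OT-I CD8+ T cells (total RNA, directional libraries with poly(A) selection). Per the labels and the study's methods, the authors trimmed reads with Trim Galore, aligned them to GRCm38 and quantified genes with RSEM 1.3.1. The deposited tables give an expected count, a TPM and an effective length for each gene, and the authors' estimates split reads that fit several genes, so expected counts were rounded before the fit. The expected counts were used for tests, the TPM (normalized by the authors for length and depth) for levels and ratios, and the deposited effective length as an offset in an alternative.

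Genes were named through GENCODE M21, with 45143 of 45706 matched, and protein-coding and lncRNA genes (27903, holding 98.46% of counts) were kept. edgeR 4.0.16 (R 4.3.3) was run with TMM normalization, filterByExpr and the quasi-likelihood test on all 18 libraries in a single fit, and p-values were adjusted by Benjamini-Hochberg over the 12255 genes tested. Normalized counts were obtained by dividing counts by TMM-adjusted library sizes and multiplying by the average of those sizes. Total expected counts ranged from 23445922 to 51995372, with a median of 27420966. The script was tested on simulated data. Ratios were tested by two-sided exact permutation (SciPy 1.17.1) with adjustment over 6 tests.

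The experiment letter comes from the genotype entry of the labels, which names an experiment for each library. Libraries of the same experiment but different groups deviated from their group means together (24 pairs, correlation 0.16 to 0.494, median 0.325), against a median of -0.076 in 97 other pairs, so experiments pair the libraries, and a fit with the experiment as a block was run as an alternative. Other alternatives were DESeq2 1.42.0 size factors and its Wald test, no filter, no count minimum, a fold threshold, the length offset, only the groups compared, and leaving out each library.

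The genes, the pathway lists and the tests were chosen with earlier results of these data known. Named were all 10 genes, from each pathway list and comparison up to 4 called genes with the largest absolute fold change, and *Tnf*, *Tnfaip3*, *Birc3* and *Bid* in any case. Some genes that this rule names are not reported here, though the counts of their lists include them. The study's methods name DESeq2 1.30.0, and its own comparisons were not used here.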

Additional observations from a re-analysis of the deposited data

Results flagged for a closer look

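In each of 48 groups of values (the 10 genes and the ratios, by group) the library farthest from the others was tested by Dixon's ratio, which chance passes in about 1 of 20 groups. The normalized count of *Ripk1* in single peptide cells with DMSO was 3203 in experiment C, above the other 4 libraries (Dixon ratio 0.719, critical value 0.71). The *Fasl* to *Fas* TPM ratio in repeat peptide cells with ibrutinib was 6.85 in experiment B (0.791, critical value 0.71). The *Cflar* to *Casp8* TPM ratio in single peptide cells with ibrutinib was 0.877 in experiment D, below the other 3 (0.848, critical value 0.829).

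The effect of ibrutinib was called as different between repeat and single peptide cells for *Tnfrsf23*, by 1.96 on the log2 scale (edgeR, adjusted p = 0.0311), and for *Tnfrsf14*, by 0.79 (edgeR, adjusted p = 0.0458). Neither call held in all 24 alternatives tried for these genes. The estimated counts of *Tnfrsf23* were not whole in 17 of the 18 libraries.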

How the results depend on the processing

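With an absolute log2 fold change above 1 in place of 0.2, none of the 10 genes was called with ibrutinib in single peptide cells (202 of all genes), 4 were called between repeat and single peptide with DMSO (1994), 2 with ibrutinib in both arms (1461) and 2 between repeat peptide with ibrutinib and single peptide with DMSO (1109). With the experiment as a replicate block, 3 were called with ibrutinib in repeat peptide cells (1694 of all genes, against 726) and 1 in the interaction (679, against 154), and in single peptide cells 1114 of all genes were called, against 373. Besides the calls given with the block above, the block changed no other call of the 10 genes. With DESeq2's Wald test 1 was called in the interaction (341 of all genes). Leaving out 1 library left 0 to 1 called with ibrutinib in repeat peptide cells (354 to 874 of all genes) and 5 to 8 between repeat and single peptide with DMSO, the lowest without repeat peptide library B.

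Signs that turned were all of genes not called. *Cflar* with ibrutinib in repeat peptide cells was 0.035 with the block and 0.13 with the length offset, *Tnfrsf1a* in single peptide cells 0.0047 with the block, *Casp8* between repeat and single peptide with DMSO -0.012 with the offset, and *Fasl* in the interaction -0.25 with the block. Leaving out 1 library gave in repeat peptide cells -0.24 to 0.13 for *Fasl* and -0.14 to 0.10 for *Cflar*, and in single peptide cells -0.61 to 0.0502 for *Fasl*, -0.15 to 0.0062 for *Tnfrsf1a*, -0.11 to 0.0039 for *Fadd* and -0.095 to 0.0044 for *Ripk1*. It gave -0.0643 to 0.0559 for *Fadd* with repeat stimulation and DMSO and -0.0066 to 0.36 for *Tnfrsf10b* between repeat peptide with ibrutinib and single peptide with DMSO. In the interaction it gave -0.10 to 0.56 for *Fasl*, -0.23 to 0.0777 for *Tnfsf10*, -0.0486 to 0.20 for *Tnfrsf1b* and -0.0052 to 0.22 for *Cflar*.

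The *Fasl* to *Fas* ratio between repeat and single peptide with DMSO was 2.87 from counts, 3.03 within experiments (exact sign-flip p = 0.125, the smallest possible) and 2.47 to 3.03 on leaving out 1 library. The *Cflar* to *Casp8* ratio was -0.55 from counts, -0.49 within experiments (exact sign-flip p = 0.125) and -0.63 to -0.43. The *Fasl* to *Fas* ratio with ibrutinib in single peptide cells was 0.14 within experiments and -0.61 to 0.14 on leaving out 1 library. The smaller groups, and the 4 experiments, could not pass after adjustment whatever their values, and the adjusted p of the *Fasl* to *Fas* ratio from counts rose with that of the other ratio. Other causes were not tested.

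With only the groups compared, 464 of all genes were called with ibrutinib in repeat and 181 in single peptide cells, and with the Wald test 1107 and 602. Leaving out 1 library gave 131 to 391 in single peptide cells and 84 to 171 in the interaction. Of the genes called with ibrutinib in single peptide cells 11.5% were higher, and 30.5% with the block. The groups of 4 or 5 libraries limit the precision of the tests.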
